A study of Homo sapiens with 4 samples.

Results

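Weakly accessible control regions that became stronger with ΔNp63α were described in BJ, a cell line established from human fibroblasts. Chromatin accessibility had been measured by ATAC-seq, which uses a transposase to insert sequencing adapters into DNA that is not wrapped tightly in nucleosomes. The regions were selected on measured values, namely the −log10 q that the authors' peak caller gave each peak: every peak of the p63 list on chromosomes 1 to 22 and X with a −log10 q of 15 or more was taken if it overlapped at least 1 peak of the CTR list and if all of these CTR peaks had a −log10 q under 10. This rule found 3314 regions among the 46609 p63 peaks of that strength, a share of 7.11%, and among 112294 p63 peaks in all. They are called strengthened regions here.

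The CTR cells expressed KLF4 alone and carry the label "empty", and the p63 cells expressed ΔNp63α together with KLF4, so that KLF4 was common to both groups. Expression came from doxycycline-inducible retroviral constructs in polyclonal lines that also carried rtTA, the doxycycline-dependent transactivator, and it was induced for 72 h. There were 2 samples per group, each from a separate induction of these lines. The authors deposited 1 peak list per group that joined its samples, so no value per replicate exists in the lists and no difference below could be set against the spread between replicates. All shares therefore carry 95% Wilson intervals, which cover counting error only, and no test was run across regions.

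p63 is the member of the p53 family that directs the formation of the epidermis and other stratified epithelia. Like p53 it binds as a tetramer to a pair of adjacent decamers, each with a core of C, a pair of A or T letters, and G. The ΔN isoform is the main form in basal keratinocytes, and p63 can bind its site in chromatin that is partly closed. KLF4, a zinc finger factor of differentiating epidermis, has been used with p63 to turn fibroblasts into keratinocyte-like cells.

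The strengthened regions were compared with 3 other sets. The 39470 shared regions were p63 peaks of the same strength with a CTR peak of 10 or more. The 3825 regions without a CTR peak were p63 peaks of the same strength that overlapped no CTR peak at all. The mirror rule, a CTR peak of 15 or more over p63 peaks that were all under 10, gave 2185 weakened regions among 41630 CTR peaks (5.25%). Strengthened regions were thus 1.52 times as many as weakened ones, but this ratio depended on the thresholds. It was 0.999 with both lists cut at 10, 2.71 with the upper threshold at 20, and 0.647 when each list was cut at the same numbers of top-ranked peaks, so that the order of the sets turned. The labelled cell type was checked at marker promoters, of which 12 of 13 for fibroblasts held a peak of 10 or more in each list (COL3A1 was below it in both), while 4 of 13 for keratinocytes, 2 of 6 for melanocytes and 0 of 5 for endothelial cells did so. The keratinocyte markers KRT5, DSG3, DSC3, COL17A1 and GRHL2 had no promoter peak in either list. KRT14 and SFN had one only in the p63 list, with a −log10 q of 4.53 and 2.56. KRT15, LAMB3, CDH1 and TFAP2C had a peak of 10 or more in both lists. A promoter peak of any strength was present at 6 of 13 keratinocyte markers in the CTR list and at 8 of 13 in the p63 list.

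The sequences at the strongest strengthened regions are shown first, because the later comparisons turn on them. Each is the window within 100 bp of the p63 summit, the position with the most reads, on the plus strand of hg38. Capitals mark the best match to the p53/p63 family site, a 20-bp stretch in which each core had to have its C and its G. The first set holds 4 regions whose site had 0 mismatches at the other 16 positions and a pair with 1 mismatch. They were the strongest regions with a site of that quality.

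TULP4 (chr6:158377952-158378152): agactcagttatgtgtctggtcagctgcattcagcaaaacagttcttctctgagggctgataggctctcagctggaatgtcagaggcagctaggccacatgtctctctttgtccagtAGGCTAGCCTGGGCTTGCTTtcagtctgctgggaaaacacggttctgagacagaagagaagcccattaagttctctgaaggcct
RECK (chr9:36074974-36075174): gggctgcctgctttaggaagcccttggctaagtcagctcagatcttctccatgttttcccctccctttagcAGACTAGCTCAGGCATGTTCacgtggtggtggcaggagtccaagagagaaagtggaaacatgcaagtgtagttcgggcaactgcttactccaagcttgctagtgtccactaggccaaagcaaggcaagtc
EVC (chr4:5773339-5773539): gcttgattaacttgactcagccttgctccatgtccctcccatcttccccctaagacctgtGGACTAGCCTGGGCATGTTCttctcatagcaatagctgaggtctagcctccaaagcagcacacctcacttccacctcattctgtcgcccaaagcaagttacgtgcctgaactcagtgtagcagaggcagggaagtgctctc
MSI2 (chr17:57524022-57524222): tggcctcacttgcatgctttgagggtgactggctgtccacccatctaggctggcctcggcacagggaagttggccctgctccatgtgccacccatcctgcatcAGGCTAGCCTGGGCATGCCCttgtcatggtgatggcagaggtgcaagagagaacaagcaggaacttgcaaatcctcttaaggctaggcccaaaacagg
RCC2 (chr1:17443584-17443784): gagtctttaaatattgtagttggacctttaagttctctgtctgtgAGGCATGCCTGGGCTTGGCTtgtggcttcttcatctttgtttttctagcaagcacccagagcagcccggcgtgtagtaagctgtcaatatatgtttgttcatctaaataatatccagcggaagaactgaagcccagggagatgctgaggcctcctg
TOX2 (chr20:44090139-44090339): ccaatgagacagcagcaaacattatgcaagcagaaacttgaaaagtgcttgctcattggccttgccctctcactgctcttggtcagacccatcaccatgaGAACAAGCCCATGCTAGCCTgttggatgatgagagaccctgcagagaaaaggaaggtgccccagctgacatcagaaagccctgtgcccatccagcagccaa

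The second set completes the 5 regions with the highest −log10 q in the p63 list, to which the TULP4 region also belongs. It also holds the region at DSP, the gene of the desmosomal plaque protein desmoplakin. The best match had 2 mismatches at the ENKUR region, 3 at the PCSK6 and VDR regions, and 4 at the BBX and DSP regions, which is beyond the limit of 3 used to call a site.

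ENKUR (chr10:25068269-25068469): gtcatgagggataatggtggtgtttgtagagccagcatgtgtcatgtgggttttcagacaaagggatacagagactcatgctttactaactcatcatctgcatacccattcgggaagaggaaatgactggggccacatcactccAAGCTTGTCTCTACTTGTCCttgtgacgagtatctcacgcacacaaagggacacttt
PCSK6 (chr15:101359025-101359225): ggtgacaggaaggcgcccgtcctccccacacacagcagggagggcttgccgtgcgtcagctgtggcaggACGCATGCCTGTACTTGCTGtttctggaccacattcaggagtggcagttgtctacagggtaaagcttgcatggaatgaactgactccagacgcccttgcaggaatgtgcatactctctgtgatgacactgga
VDR (chr12:47876664-47876864): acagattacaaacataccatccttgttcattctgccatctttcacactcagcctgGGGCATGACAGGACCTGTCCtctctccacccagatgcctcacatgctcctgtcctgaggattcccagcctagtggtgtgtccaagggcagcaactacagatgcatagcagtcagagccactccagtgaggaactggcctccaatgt
BBX (chr3:107699768-107699968): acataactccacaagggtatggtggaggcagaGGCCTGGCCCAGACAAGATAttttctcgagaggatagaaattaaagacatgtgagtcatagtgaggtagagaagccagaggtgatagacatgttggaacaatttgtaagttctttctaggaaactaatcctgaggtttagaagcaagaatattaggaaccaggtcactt
DSP (chr6:7553794-7553994): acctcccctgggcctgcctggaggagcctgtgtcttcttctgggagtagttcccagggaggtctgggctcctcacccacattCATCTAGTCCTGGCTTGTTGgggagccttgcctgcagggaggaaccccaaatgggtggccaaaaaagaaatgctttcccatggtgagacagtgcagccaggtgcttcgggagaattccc

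The BBX region (chr3:107699592-107700141) lay in an intron of this HMG-box gene. It had the highest −log10 q of all strengthened regions, 97.6 in the p63 list against 7.15 in the CTR list, and 95 reads at the p63 summit against 12 at the CTR summit. Its window also held an AP-1 motif. The TULP4 region (chr6:158377869-158378302) was intronic, with a −log10 q of 94.5 against 7.12 and 97 against 12 reads, and the site with 0 mismatches was centred 26 bp from the p63 summit. The region nearest to ENKUR (chr10:25068134-25068622) lay in an intron of a lncRNA gene and had 101 against 13 reads.

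The PCSK6 region (chr15:101358948-101359862), in an intron of a proprotein convertase gene, had 110 against 12 reads, the highest p63 pileup outside ribosomal DNA. The VDR region (chr12:47876405-47877047) lay 2351 bp from a TSS of the vitamin D receptor gene and had 88 against 12 reads. In all 5 of these regions the CTR summit had 12 or 13 reads, close to the median of the set.

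Sites with 0 mismatches were also found at RECK, which encodes a membrane-bound inhibitor of matrix metalloproteinases, with 54 against 12 reads in chr9:36074758-36075349, and at EVC, a cilium gene, with 59 against 7 reads in chr4:5772931-5773632. At MSI2, an RNA-binding protein gene, the region chr17:57523776-57524375 lay 187 bp from a TSS and had 47 against 18 reads. The regions nearest to RCC2 (chr1:17443466-17443847) and TOX2 (chr20:44089939-44090562) were intergenic, with 71 against 24 and 55 against 14 reads. All 6 had more than 2 times as many reads in the p63 list.

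Next, the levels of the strengthened regions were described. They were set by the selection and are given as a description only. The −log10 q in the p63 list had a median of 19.6, a lowest value of 15.002 and a highest of 97.6, while the highest overlapping CTR peak had a median of 7.15, between 1.33 and 9.996. At the p63 threshold the closest regions inside had 15.002, 15.002 and 15.0167, and the closest outside had 14.998, 14.998 and 14.999. At the CTR threshold the closest inside had 9.99148, 9.99148 and 9.99608, and the closest outside 10.009, 10.0096 and 10.0181. A region just outside thus differed from one just inside by far less than the range of the set.

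The pileup, the number of reads over the summit, was recovered from the fold enrichment and the p-value of each peak. Its median was 29 reads with p63 (5th to 95th percentile 20 to 57) and 13 reads in CTR (8 to 26). The p63/CTR ratio of the pileups had a median of 2.1, against 1.05 in shared regions, and ranged from 1.03 to 12.3. The p63 pileup was at least 2 times that of CTR in 1894 regions (57.2%), at least 4 times in 320 (9.66%), and at or below it in 0. The background coverage of a list was not measured directly, and was taken as the most frequent local background solved from its peaks. It was 1.13 reads in the p63 list and 1.18 in the CTR list, a ratio of 0.958, while the total read depth is unknown. The local background of the strengthened regions moved with the pileup, with a median of 2.03 reads with p63 and 1.43 in CTR, and its part in the difference was not tested.

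**Figure D1:**
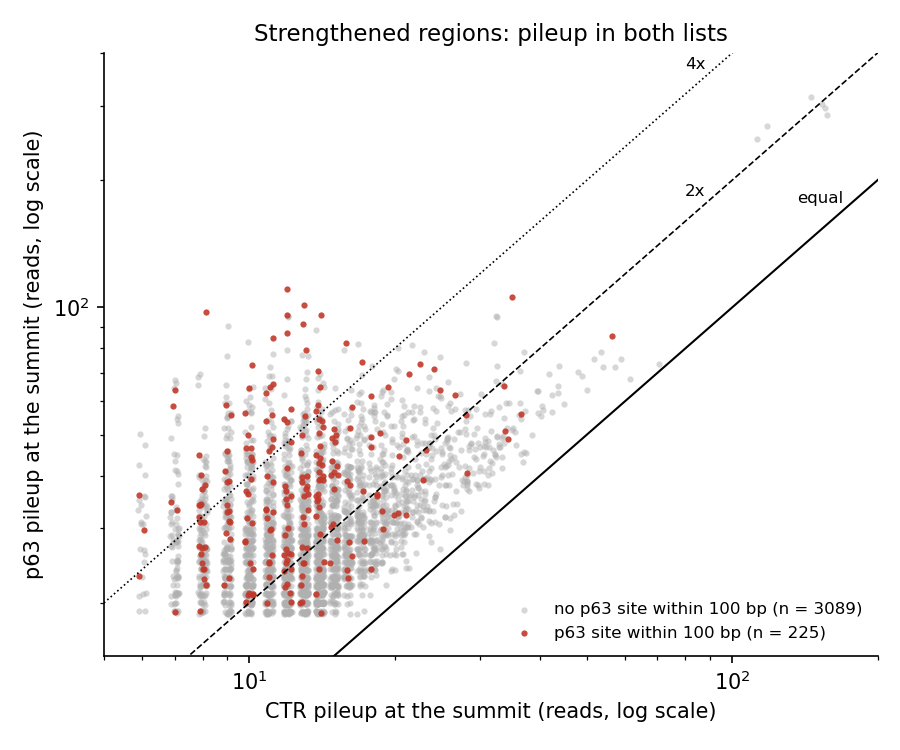
Pileup at the summit of each of the 3314 strengthened regions, with reads in the CTR list on the x axis and in the p63 list on the y axis (both log scales, points shifted by up to 2% so that equal values can be seen). The lines mark equal, 2 times and 4 times as many reads. All points lie above the line of equality, and red points, the 225 regions with a p63 site within 100 bp, have a median of 37 against 12 reads. The 6 points at the upper right lie in ribosomal DNA.

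A group of 6 regions stood apart, with 251 to 313 reads in the p63 list and 113 to 154 in the CTR list, while the other 3308 had at most 110 and 72 reads. All lay on chromosome 21 between positions 8209623 and 8399841, in or beside annotated ribosomal RNA genes (among them RNA5-8SN2 and RNA5-8SN3). Their fold enrichment was low, 1.79 to 2.33 with p63 and 1.61 to 1.95 in CTR. These genes exist in many near-identical copies, so the reads cannot be assigned to a single copy and the values are uncertain. None of the 6 held a p63 site.

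The strengthened regions were also wider with p63. Their median width was 482 bp in the p63 list and 319 bp in the CTR list, with a median ratio of 1.40. In 2681 regions (80.9%) the p63 peak was the wider one, and in 1874 the CTR peak lay wholly within it. Width follows from the same reads as the −log10 q, and is a description like the levels. Most regions faced a single CTR peak (3278), while 35 faced 2 and 1 faced 3.

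The summits lay a median of 49 bp apart, and in 1700 regions (51.3%) within 50 bp. The upper quartile of this shift was 97 bp, and in 290 regions (8.75%) the p63 summit fell outside the CTR peak altogether. At EVC, for instance, the summits were 196 bp apart and the CTR peak was 162 bp wide against 702 bp with p63. At CDH3 they were 379 bp apart. Strengthened regions therefore included sites where the called summit was not the same in both lists. The CTR summits rest on a median of 13 reads, and the part of these low reads in the shift was not tested.

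To determine where the strengthened regions lie, their summits were placed on the GENCODE annotation, release 44. They were mostly distal. Of the 3314 summits, 905 (27.3%, 25.8 to 28.9) lay within 3 kb of a TSS, 81 (2.44%) in other exons, 1385 (41.8%) in introns and 943 (28.5%) between genes. In shared regions 46.2% were promoter summits, while regions without a CTR peak (22.8%) and weakened regions (24.3%) were closer to the strengthened ones. Within 1 kb of the TSS of a protein-coding gene lay 298 strengthened summits (8.99%) against 30.9% of shared summits. More than 50 kb from any such TSS were 960 (29.0%) strengthened and 21.4% of shared summits. The median distance to it was 20150 bp.

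**Figure D2:**
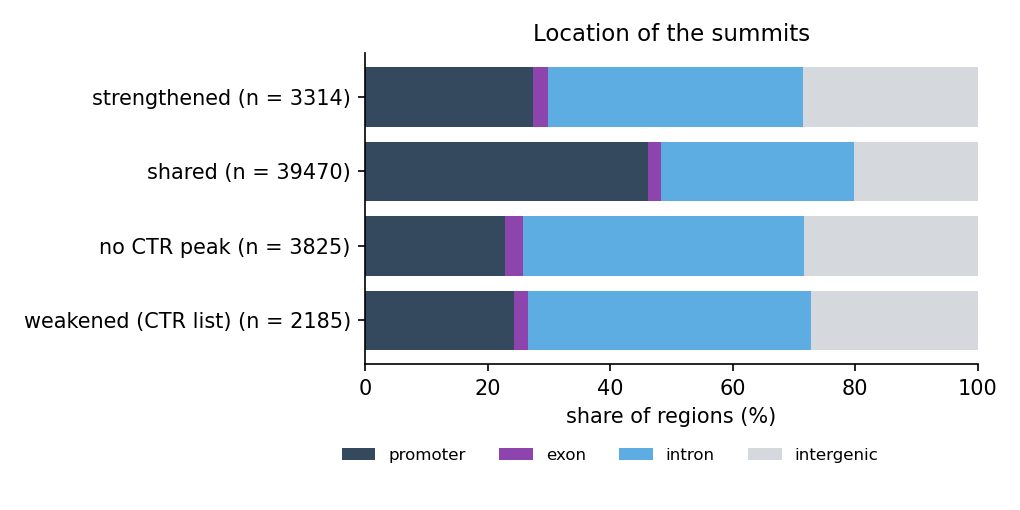
Share of summits in promoters (within 3 kb of an annotated TSS), exons, introns and intergenic sequence, in percent, for 4 sets of regions. Strengthened regions had 27.3% promoter summits, against 46.2% in shared, 22.8% in p63 regions without a CTR peak and 24.3% in weakened regions.

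Shared regions were stronger peaks, with a median −log10 q of 32.3, and the promoter shares were set side by side within ranges of the p63 −log10 q. In strengthened regions the share was 27.5% at 15 to 20, 26.6% at 20 to 30, 28.7% at 30 to 50 and 24.0% at 50 or more. In shared regions it was 31.9%, 37.1%, 48.6% and 63.7% in the same ranges. The promoter share thus stayed level over the strengthened regions and was higher in each further range of the shared ones.

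The 5 strongest strengthened regions within 1 kb of a protein-coding TSS are named here. The region at XDH, the gene of xanthine oxidoreductase (chr2:31390316-31390818, 891 bp from the TSS), had 64 against 7 reads, and its window held a p63 site with 2 mismatches and an AP-1 motif. The region at TGM1, the gene of the transglutaminase that crosslinks the cornified envelope of the epidermis (chr14:24264106-24264934), had its summit 33 bp from the TSS and 82 against 17 reads. No p63 site was found in its window. MAP3K9, a kinase gene (chr14:70782344-70782742), had 66 against 14 reads and a RUNX motif. ABCA1, a cholesterol transporter gene (chr9:104831601-104831949), had 57 against 18 reads. RNF175 (chr4:153748376-153748974) had 58 against 16 reads and a site with 3 mismatches. A p63 site was thus present in 2 of these 5 promoters.

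Summits of weakened regions came from the CTR list, and those of the other sets from the p63 list. The p63 site was then counted within 100 bp of all summits. It was found in 225 strengthened regions (6.79%, 5.98 to 7.70) and in 1.25% (1.01 to 1.55) of equally long windows 2 kb away on both sides. Shared regions held it in 1.51% against 1.02% beside them, regions without a CTR peak in 23.6%, and weakened regions in 11 of 2185 (0.503%). The strengthened share exceeded the shared one by 5.28 percentage points (Newcombe interval 4.46 to 6.19) and the weakened one by 6.29 (5.39 to 7.22), in each case on 23 of 23 chromosomes. It was lower than in regions without a CTR peak by 16.8 points (15.2 to 18.4), again on 23 of 23. Most strengthened regions, 3089 of 3314, held no site at this limit.

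Among strengthened regions, 8 held a site with 0 mismatches, 13 with 1, 54 with 2 and 150 with 3. A further 268 had a best match with 4 mismatches, and 1164 (35.1%) held no pair of cores at the right spacing at all. This share was 41.8% in shared regions, 18.1% in those without a CTR peak and 64.2% in weakened regions. The fixed letters of a core are C and G. Median GC content was 50.2% in strengthened regions, and 51.7%, 49.8% and 44.3% in the other sets in the same order. The part of base composition in these shares was not tested. Weakened regions held 0 sites with 2 mismatches or fewer. A single decamer matched in full in 12.7% of strengthened regions, against 6.18% of shared regions, 25.9% of those without a CTR peak and 5.10% of the windows beside the strengthened regions.

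The share with a site followed the accessibility without p63. Over all p63 peaks of 15 or more it was 23.6% where no CTR peak was called. Within the strengthened regions it was 10.53% (6.92 to 15.7) where the CTR −log10 q was under 3, 9.82% (7.62 to 12.6) at 3 to 5, 7.48% (6.11 to 9.12) at 5 to 7.5 and 4.47% (3.50 to 5.69) at 7.5 to 10. It went on falling in the shared regions, from 3.85% in the first range above 10 to 0.989% at 50 or more. The intervals of neighbouring ranges of the strengthened regions overlapped, except between 5 to 7.5 and 7.5 to 10. The CTR threshold of 10 fell within a gradual change and not at a step, since 4.47% just below it and 3.85% (3.05 to 4.85) just above it had overlapping intervals.

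The share also followed the accessibility with p63. In strengthened regions it was 3.60% (2.82 to 4.59) at a p63 −log10 q of 15 to 20, 7.09% (5.68 to 8.83) at 20 to 30, 13.5% (10.8 to 16.8) at 30 to 50 and 32.0% (22.5 to 43.2), or 24 of 75, at 50 or more. In the last range the interval overlapped that of the 32.9% (23.7 to 43.7) of regions without a CTR peak, while at 15 to 20 these held a site in 20.4%. Shared regions held it in 0.629% to 1.96% over the same ranges. At equal p63 strength, strengthened regions thus held more sites than shared ones in each of the 4 ranges.

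**Figure D3:**
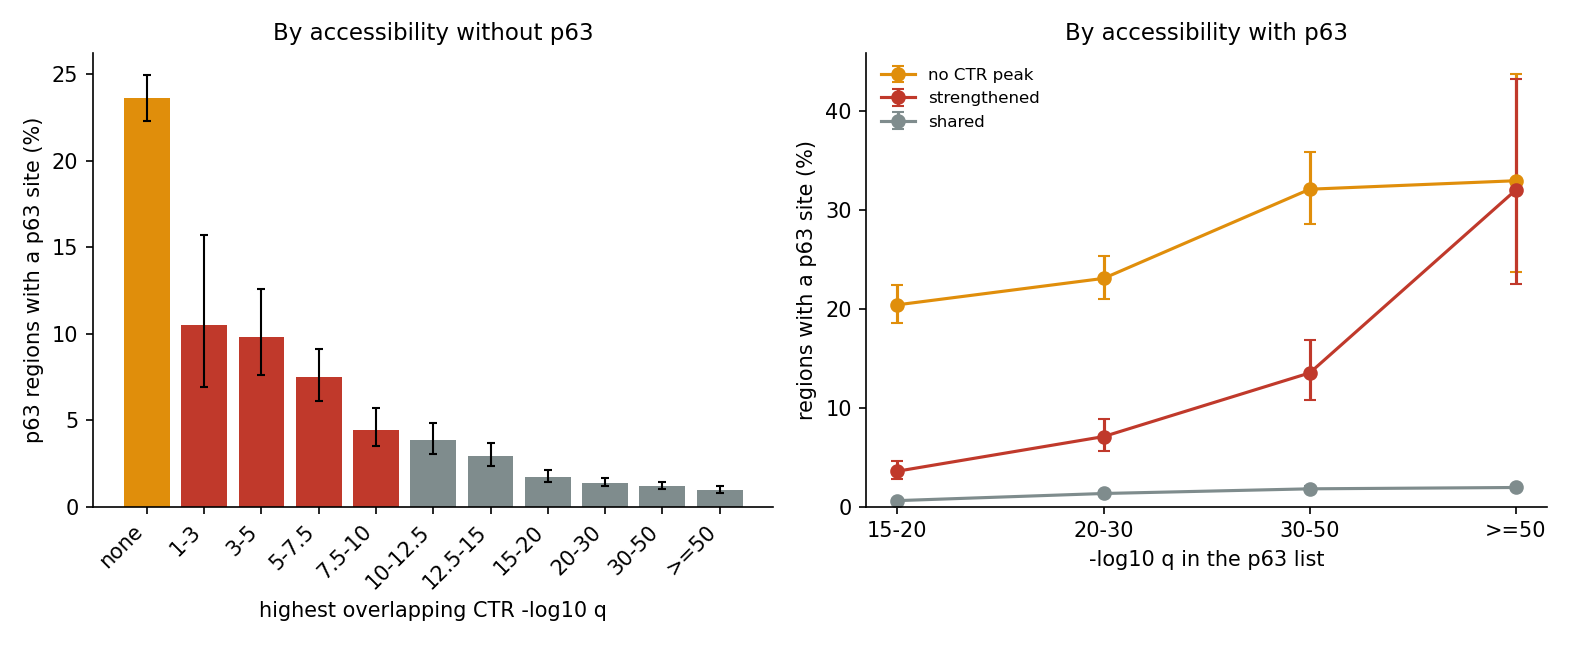
Share of p63 regions with a p63 site within 100 bp of the summit, in percent with 95% Wilson intervals. The left bars give it by the highest overlapping CTR −log10 q (orange, no CTR peak; red, strengthened; grey, shared) and fall from 23.6% to 0.989%, and the right lines give it by the p63 −log10 q, where strengthened regions went from 3.60% to 32.0%.

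By the pileup ratio, 1.32% of strengthened regions with a p63/CTR ratio under 1.5 held a site, 2.88% at 1.5 to 2, 6.96% at 2 to 3, 12.3% at 3 to 4 and 17.5% (13.7 to 22.04) at 4 or more. Location made little difference, with 7.18% in promoters, 4.94% in exons, 6.79% in introns and 6.57% between genes, and overlapping intervals. In shared regions the corresponding shares were 1.28%, 0.993%, 1.59% and 1.96%. The higher share of the strengthened regions was therefore seen in promoters as well as at a distance from them.

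The 225 regions with a site were stronger with p63 than the 3089 without. Their median −log10 q was 25.9 against 19.2, their median pileup 37 against 28 reads, and their p63/CTR ratio 2.96 against 2.08. In CTR the medians were close, with 12 against 13 reads. The p63 peaks with a site were 524 bp wide and those without 478 bp, while the CTR peaks were 294 bp and 320 bp. The summits lay 70 bp apart with a site and 47 bp without. The presence of a site and the strength of a region with p63 went together here, as a description of these lists.

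Sites were concentrated at the summit. Strengthened regions had 495 sites per kb and 1000 regions within 50 bp of the p63 summit and 67.3 at 500 to 1000 bp, a ratio of 7.35. The ratio was 30.3 in regions without a CTR peak, 1.74 in shared regions and 0.556 in weakened regions. The last was centred on the CTR summit and rested on 6 sites near it.

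**Figure D4:**
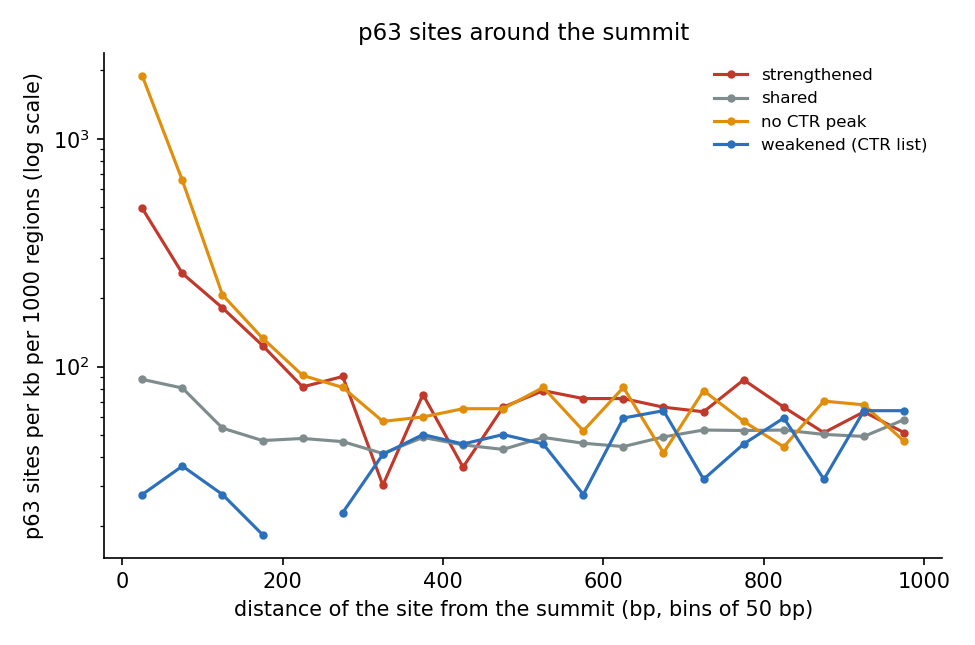
Density of p63 sites by distance from the summit (bins of 50 bp on the x axis), as sites per kb per 1000 regions on a log scale, for 4 sets. In strengthened regions the density was 495 within 50 bp and 67.3 beyond 500 bp. The line of the weakened regions is centred on the CTR summit and is broken at a bin without a site.

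To place the site against the summits of both lists, the best match was searched over the joint span of both peaks. The p63 peak was the wider one in 80.9% of strengthened regions. Shared regions had median widths of 636.5 bp with p63 and 649 bp in CTR. By the selection, the CTR summits of strengthened regions also rest on few reads, a median of 13 against 29 with p63. In shared regions these medians were 43 and 45. How far the span or the low CTR reads place a match nearer to the p63 summit was not tested, also for the comparison with shared regions. The best match was a site of at most 3 mismatches in 388 strengthened regions (11.7%). The site was nearer to the p63 summit in 270, nearer to the CTR summit in 112 and equally far in 6, a share of 69.6% (64.8 to 74.0) nearer to the p63 summit. Its median distance was 67 bp from the p63 summit and 131.5 bp from the CTR summit, and it lay within 50 bp of the former in 160 and of the latter in 70 regions. Where the summits were more than 50 bp apart, it was nearer to the p63 summit in 180 of 229 regions (78.6%, 72.8 to 83.4). In shared regions this share was 67.4% (64.0 to 70.6). With a site in them, 57.1% (54.8 to 59.4) of all shared regions and 16 of 31 weakened regions had it nearer to the p63 summit. These intervals of strengthened and shared regions did not overlap, but at most 2 mismatches gave 68.3% (59.6 to 75.9) against 60.8% (56.0 to 65.4) of all regions with a site, where they did.

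Motifs of other factors were counted in the same windows on both strands. AP-1 motifs (TGACTCA and its complement), bound by the JUN and FOS proteins that hold many fibroblast and keratinocyte enhancers open, were the most frequent. They occurred in 877 strengthened regions (26.5%, 24.99 to 27.99) and in 3.53% of the windows beside them. The shares in shared regions (26.4%) and weakened regions (26.6%) were close to it, with differences of 0.064 points (interval −1.47 to 1.65) and −0.173 points (−2.57 to 2.20). With CTR peaks under 5, however, the strengthened share was lower than the shared one, at −4.67 points (−7.50 to −1.54). Regions without a CTR peak held fewer, 18.01%, a difference of 8.45 points (6.52 to 10.4) in the same direction on 23 of 23 chromosomes. Within locations the shares differed. In introns 28.01% of strengthened and 37.6% of shared regions held an AP-1 motif, between genes 27.6% and 35.1%, and in promoters 22.9% and 14.5%.

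The overlap of AP-1 motifs and p63 sites was counted next. Of the 225 regions with a p63 site, 48 (21.3%, 16.5 to 27.1) held an AP-1 motif, against 26.8% (25.3 to 28.4) of those without, with overlapping intervals. The AP-1 share rose with the CTR level, from 18.9% (14.0 to 25.1) where the CTR −log10 q was under 3 to 27.8% (25.5 to 30.2) at 7.5 to 10, opposite to the p63 site. Within strengthened regions, then, the weakest CTR peaks had the most p63 sites and the fewest AP-1 motifs.

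The remaining motifs were those of TEAD (ACATTCCA, ACATTCCT, GCATTCCA and GCATTCCT), KLF (GGGCGGGGC, GGGCGTGGC, GGGTGGGGC and GGGTGTGGC), RUNX (TGTGGTT), C/EBP (TTGCNNAA), GRHL (AACNGGTT), TFAP2 (GCCNNNGGC), ETS (CCGGAAG) and CTCF. KLF motifs occurred in 4.95% of strengthened regions, fewer than in shared regions (8.84%) but more than beside them (1.33%), in regions without a CTR peak (3.32%) and in weakened regions (3.16%). TFAP2 motifs were found in 9.44% against 13.7% of shared regions, and ETS motifs, which are typical of promoters, in 0.935% against 4.86%. For KLF, TFAP2 and ETS the share was below the shared one on at least 22 of 23 chromosomes. Unlike AP-1, these motifs were not split by location, while promoter summits made up 46.2% of shared and 27.3% of strengthened regions. The part of location in these differences was not tested.

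TEAD motifs were found in 9.05% of strengthened and 8.17% of shared regions, with an interval of the difference that included 0 (−0.09 to 1.94), and in 11.6% of weakened regions. RUNX motifs occurred in 5.73%, against 8.97% of weakened regions. C/EBP motifs in strengthened regions (9.78%) were as frequent as in the windows beside them (9.99%). Their share exceeded that of shared regions by 1.23 points (0.22 to 2.32), higher on 16 of 23 chromosomes, and differed from weakened regions by −3.31 points (−5.08 to −1.60). The interval against shared regions included 0 with CTR peaks under 5, 50% overlap and a window of 50 bp. GRHL motifs, those of the grainyhead-like factors of epithelia, were rare at 1.69% (1.30 to 2.19), but exceeded the 0.983% of shared regions by 0.71 points (0.31 to 1.21). The interval included 0 with a window of 50 bp, at 0.04 points (−0.17 to 0.36), and with CTR peaks under 5, at 0.35 points (−0.27 to 1.46). The insulator factor CTCF had its motif in 6.82% of strengthened, 8.21% of shared and 10.48% of weakened regions. Its difference from the shared regions had the opposite sign, 0.362 points (−0.325 to 1.09), when the p63 threshold was 10.

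**Figure D5:**
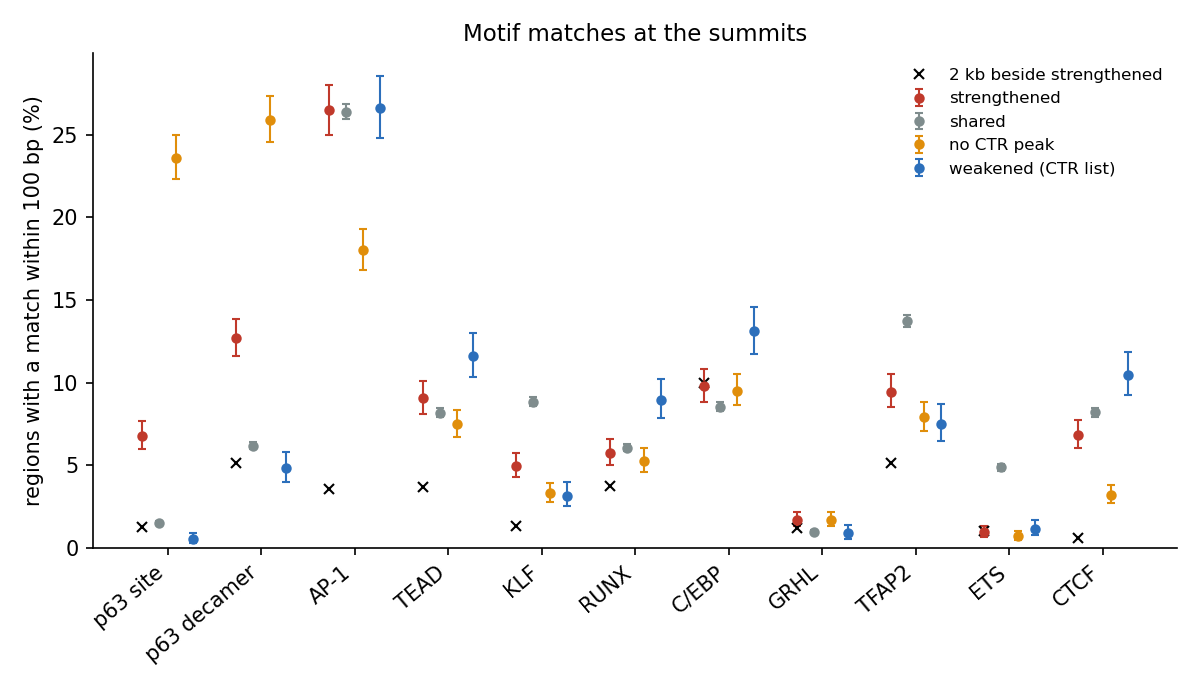
Share of regions with a match within 100 bp of the summit, in percent with 95% Wilson intervals, for the p63 site, a single p63 decamer and 9 other motifs in 4 sets, with crosses for windows 2 kb beside the strengthened regions. The sets differ most at the p63 site and decamer, while AP-1 lies between 26.4% and 26.6% in strengthened, shared and weakened regions.

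Base composition differed between the sets too. The windows of strengthened regions had a median GC content of 50.2%, against 44.8% beside them, 51.7% in shared and 44.3% in weakened regions. The 2080 possible 6-letter words were each counted with their complement within 50 bp of the summit. They were therefore ranked by their difference from the shared regions, where the median GC was similar. The upper quartile of GC still differed, at 56.2% in strengthened and 62.2% in shared regions, and its part in the ranking was not tested. The leading word was CAGGCA, in 18.9% of strengthened and 11.3% of shared regions. It was followed by CATGCC (13.2% against 6.55%), CACCCA (15.99% against 10.3%), AGCCTG (17.4% against 11.7%), TGCCCA (13.4% against 7.82%) and ACATGC (10.4% against 4.79%). CATGCC and ACATGC hold CATG, a spelling of the core of the p63 decamer. Regions without a CTR peak had still higher shares of them, 18.7% and 17.2%. Against weakened regions the words lowest in strengthened regions were made of A and T alone (AAAAAT in 7.97% against 16.2%), which moves with GC content.

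Finally, the genes near the strengthened regions were examined. A strengthened region lay within 50 kb of a TSS for 4020 of 19962 protein-coding genes (20.1%), and lists of genes are read against this share. Of 45 keratinocyte genes, 17 (37.8%) had such a region, 20 regions in all. In regions without a CTR peak the list share was 46.7% against 21.5% of all protein-coding genes, and in weakened regions it was 1 of 45 (2.22%) against 12.3%. The keratinocyte share remained above that of all genes at 25 kb, 100 kb and a p63 threshold of 20, by 1.99, 1.45 and 2.80 times. Genes in 1 cluster can share a region, and lists differ in how many regions of any kind lie near their genes, so no weight beyond the counts is given to these shares.

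The members of the keratinocyte list are described in turn. ITGB4, the integrin of hemidesmosomes, had the strongest (chr17:75723199-75724231), 1314 bp from a TSS, with 78 against 23 reads and a −log10 q of 53.5 against 8.86. Its window held a KLF motif and no p63 site. The peak within 1 kb of an ITGB4 TSS had a −log10 q of 7.08 in the p63 list against 8.36 in the CTR list. PKP1, a plaque protein of desmosomes, had 3 regions, with 71 against 20 reads at chr1:201299987-201300504, 56 against 28 at chr1:201311564-201311987, where a site with 3 mismatches was found, and 33 against 15 at chr1:201261643-201262017. The intronic DSP region (chr6:7553650-7554001) had 36 against 7 reads, and its summit lay 9 bp from the centre of the match with 4 mismatches printed above. LAMB3, which encodes a laminin chain, had 1 region (chr1:209607286-209607855) with 27 against 16 reads. This region lay 11167 bp from a TSS of LAMB3 and 163 bp from one of CAMK1G. The peak at the LAMB3 promoter itself had a −log10 q of 20.1 in the p63 list against 34.2 in the CTR list.

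The CDH3 region (chr16:68707215-68708000) lay in an intron of the P-cadherin gene, 11301 bp from its TSS and 29847 bp from that of CDH1, the E-cadherin gene. It had 54 against 12 reads and an AP-1 motif. The region near TFAP2A, which encodes the epidermal transcription factor AP-2α (chr6:10431322-10431803), had 57 against 12 reads and a p63 site with 2 mismatches 32 bp from its summit. GRHL3, a grainyhead-like factor of the skin barrier, had a pair of intronic regions with 39 against 10 and 28 against 9 reads. Among the keratins, regions lay within 50 kb of KRT5 (40 against 12 reads), of KRT16 and KRT17, which shared one (45 against 15 reads), and of KRT1 (25 against 11 and 20 against 8 reads). ITGA3, an integrin gene, had 56 against 22 reads, SERPINB5, a serpin gene, 38 against 14, and ESRP1, a gene of an epithelial splicing regulator, 26 against 11. Over the 20 regions the p63/CTR ratio had a median of 2.63 and a highest value of 5.14, and 2 of them, at PKP1 and TFAP2A, held a p63 site. No strengthened region lay within 50 kb of a TSS of TP63, KLF4 or KRT14.

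Genes of the EGF receptor family and its ligands, which drive keratinocyte growth and migration, had a strengthened region in 6 of 10 cases, 9 regions in all. The list share was also high in regions without a CTR peak, 50% against 21.5% of all protein-coding genes. In weakened regions it was 30% against 12.3%, so it was not particular to the strengthened regions. The EGFR region (chr7:55109355-55109869) had its summit 164 bp from a TSS, 28 against 9 reads and a site with 3 mismatches at the summit itself, and a second region lay in an EGFR intron (23 against 9 reads). TGFA, the gene of transforming growth factor α, had 3 regions, of which chr2:70524242-70525350 was the strongest with 40 against 14 reads. The regions near ERBB2 (chr17:39741417-39741769, at GRB7) and HBEGF (chr5:140366705-140367307, at SLC4A9) had 56 against 15 and 46 against 16 reads. BTC and NRG1 each had a weaker one, with 22 against 15 and 21 against 13 reads. A site was found in 1 of the 9, against 6.79% of all strengthened regions. This list and those below have too few regions for their site counts to be read apart from that share.

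Of 13 Notch pathway genes, 5 (38.5%) had a strengthened region. A weakened region lay near 3 of the 13 (23.1%), against 12.3% of all protein-coding genes. A region without a CTR peak also lay near 3 (23.1%), against 21.5%. The NOTCH3 region (chr19:15198026-15198343), 2693 bp from a TSS of this receptor gene, had 45 against 15 reads and a KLF motif, and the region in an intron of RBPJ, the DNA-binding partner of the receptors (chr4:26176702-26177323), had 38 against 16 reads. HEY2 and HEYL, target genes of the pathway, and NOTCH2 had regions with ratios of 1.53 to 2.07. None of the 6 regions held a p63 site. Of 10 genes for AP-1 proteins, 4 had a region, JUN, JUNB, JUND and FOSL2, with low ratios of 1.28 to 2. The JUND region (chr19:18279612-18279820) overlapped the UTR of its exon and had 64 against 50 reads. No region remained near an AP-1 gene at a p63 threshold of 20.

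Of 28 p53 family target genes, 6 (21.4%) had a strengthened region, close to the share of all genes, but at a p63 threshold of 20 the list's share was 2.08 times that of all genes. The strongest lay in an intron of SLC35E3, 20655 bp from a TSS of MDM2, the gene of the p53 ubiquitin ligase (chr12:68787142-68787798), with 45 against 14 reads and no pair of p63 cores in its window. The others were near FDXR (45 against 9 reads), BTG2, GDF15, TNFRSF10B and ZMAT3. None of the 9 regions held a p63 site.

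Fibroblast genes had a strengthened region in 6 of 30 cases (20%), again close to the share of all genes. They were MMP2, the gene of a gelatinase (41 against 7 reads at chr16:55458708-55459326 and 23 against 7 at chr16:55411237-55411642), COL6A3 (52 against 16 reads), CDH2 (31 against 14), CDH11, FN1 and S100A4. The MMP2 region with the higher value held an AP-1 motif and a p63 decamer. None of the 8 held a full site. The S100A4 region (chr1:153577541-153577958, 37 against 15 reads) was also the one counted for the keratinocyte gene S100A2, which lay nearer, at 9846 bp.

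In the remaining lists, 3 of 21 TGF-β and BMP pathway genes (14.3%), 3 of 13 YAP-TEAD genes (23.1%) and 4 of 10 inflammatory genes had a strengthened region. The region near SMAD7, an inhibitor of TGF-β signalling (chr18:48963357-48963866), had 54 against 12 reads, that of BMP7 (chr20:57223701-57224090) 37 against 9 reads, and that near TGFBR1 31 against 16. An intronic YAP1 region had 24 against 10 reads, and regions near TEAD3 and ANKRD1 had 51 against 19 and 30 against 15. A region between genes, 19093 bp from a TSS of IL1B and 29989 bp from one of IL1A (chr2:112814308-112814609), had 49 against 15 reads and a site with 2 mismatches 82 bp from its summit. The regions near CCL2 and LIF had 39 against 13 and 42 against 10 reads. The lists of 10 to 13 genes are too short for their shares to be read apart from that of all genes, and the shares of the p53 target, YAP-TEAD, inflammatory, fibroblast, AP-1 and TGF-β lists changed sides of it with the gene window or the p63 threshold.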

How the data were processed

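ATAC-seq was performed by the authors in 4 samples, 2 per group. They mapped reads to hg38 with Bowtie2 2.3.4.3 and joined the replicates of a group for peak calling with MACS2; the MACS2 version and options, duplicate removal and the shift for the transposase are not given in the sources used here. Each deposited list gives per peak a score, a fold enrichment (the ratio of summit pileup to local background, each with 1 read added), a −log10 p, a −log10 q and a summit offset. The total read depth is unknown, and the deposited values were not scaled between the lists. The 4 samples were grouped by their titles.

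Overlaps of at least 1 bp were found on 23 chromosomes (bedtools 2.31.1 was used to check them). The pileup and local background were solved from the fold and the Poisson p, and matched the −log10 p within 0.001 in 88224 of 88239 peaks. The 201-bp summit windows were read with pysam 0.24.0. Motifs were exact on both strands, except CTCF (at most 1 mismatch). Locations used GENCODE release 44, and the promoter window was 3 kb. The overlaps, the search for the p63 site and the recovery of the pileup were tested on simulated data, and the other steps were not. Regions share their libraries and no p-value was computed across them. Intervals are 95% Wilson or Newcombe, at counting error only.

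Named regions were the 5 with the highest p63 −log10 q, the 6 highest with a site of at most 1 mismatch, the 5 highest within 1 kb of a protein-coding TSS, up to 4 per gene list, and those near TP63, KLF4, KRT14 or DSP; further list regions were named after their values were seen. The regions, gene lists and motifs were chosen with earlier results of these data known. The alternatives were other thresholds, overlaps, ranks, windows, TSS sets and mismatch limits. For 1 of the listed genes, the values of its single regions are not reported here.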

Additional observations from a re-analysis of the deposited data

How the results depend on the processing

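The strengthened regions were 1592 at a p63 threshold of 20, 7449 at 10, 750 with CTR peaks under 5, 2321 with 50% overlap of both peaks and 2349 by rank. Their ratio to weakened regions was 2.71, 0.999, 3.73, 1.27 and 0.647 in the same order. Merging touching peaks joined none. The promoter share was 24.9% by rank, 14.1% with a window of 1 kb and 17.5% with protein-coding TSSs, and its difference from shared regions was −22.3 points at a threshold of 20, −14.9 at 10, −21.0 by rank and −22.5 at 1 kb. The p63 site share was 10.2% at 20, 3.96% at 10, 10% with CTR under 5, 5.56% with 50% overlap, 7.75% by rank, 4.10% and 10.05% with windows of 50 and 200 bp, and 2.26% and 14.9% with at most 2 and 4 mismatches. Its difference from shared regions remained positive under all of these, with 8.53 points at 20, 2.57 at 10, 8.49 with CTR under 5, 4.11 with 50% overlap, 3.39 and 7.49 with windows of 50 and 200 bp, and 1.90 and 10.6 with 2 and 4 mismatches. The share of protein-coding genes was 12.3% at 25 kb, 32.2% at 100 kb and 10.3% at a threshold of 20. The ratio of a list's share to it passed 1 for the p53 target (0.870 at 25 kb, 0.997 at 100 kb, but 2.08 at 20), YAP-TEAD (0.625 at 25 kb), inflammatory (0.812 at 25 kb, but 3.87 at 20), fibroblast (1.03 at 100 kb, 1.29 at 20), TGF-β and BMP (1.48 at 100 kb, 1.38 at 20) and AP-1 lists (0 at 20). The CTCF difference from shared regions was 0.362 points at 10. The causes of these changes were not tested. Of 186 values under alternatives, 110 stayed within their limit.

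No paired analysis was possible because each list joins the replicates of its group, and for the same reason no replicate was left out. The lists hold peaks alone, so weak accessibility below the caller's limit was not seen.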

Other observations

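Strengthened regions were spread over the genome. Their share of the p63 peaks of 15 or more ranged from 5.30% on chromosome 19 to 9.28% on chromosome 21, which carries the 6 ribosomal DNA regions among its 54. The protein-coding genes with the most strengthened regions within 50 kb were COL27A1, a fibrillar collagen gene, GFOD2 and IQSEC1, with 5 each. A p63 region without a CTR peak lay within 50 kb of 23.6% (22.2 to 25.1) of strengthened regions, of 19.8% (19.4 to 20.2) of shared and of 18.5% (16.9 to 20.2) of weakened regions. Within 10 kb the shares were 4.38%, 3.84% and 5.31%, an order that differs from that at 50 kb. Another strengthened region lay within 50 kb of 21.3% of strengthened regions.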
